A study of Homo sapiens with 12 samples.

Results

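The genes described here carry sterols out of the lysosome and out of the cell, sense them through the liver X receptors (LXR), or make the oxysterols that those receptors bind. They were the rows of both deposited TPM tables (transcript abundance scaled to length and library total) whose gene name was NR1H2, NR1H3, ABCA1, ABCG1, APOE, NPC1, NPC2, LPCAT3, CH25H or CYP27A1, joined between the tables by gene identifier. All 10 were found, out of 60630 genes listed in both tables, and all 10 were above 0 TPM in each of the 12 libraries. RNA was sequenced from SZ95 sebocytes, an immortalised line derived from human sebaceous gland, in 4 groups of 3 biological replicates: LA with RVT, LA alone, PGN with RVT and PGN alone. RVT is resveratrol by the title of the series, LA and PGN are read here as linoleic acid and peptidoglycan, which the sample labels do not spell out, and no dose, time or vehicle is given in the labels. Every group carried a stimulus and all came from 1 cell line, so the comparisons are of RVT on top of LA and of RVT on top of PGN. The LA libraries and the PGN libraries lie in separate tables with different annotations, and levels in the 2 arms are set side by side without a test.

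Liver X receptors are nuclear receptors that pair with a retinoid X receptor and switch on genes when oxysterols, oxidised forms of cholesterol, bind them. Their classical targets move cholesterol to apolipoproteins outside the cell and raise fatty acid synthesis. Sebocytes make and store neutral lipids, sterols among them, before they burst to release sebum.

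The upstream sequences of 3 genes that the comparisons below turn on are shown, each the 250 bases before the transcription start in the RefSeq table on GRCh38.p14, read in the direction of the gene. Promoters were searched on both strands, in windows that ran from 250 bases before to 50 after the start, for 2 elements. The first was the LXR type of direct repeat, a half-site GGTNA followed by any 5 letters and GGTNA again, which gives 6-letter half-sites spaced by 4. The second was the sterol regulatory element TCACNCCAC. The capitals in the ABCA1 sequence mark its direct repeat, which lies on the opposite strand at bases -69 to -55 from the start.
ABCA1, chr9:104928156-104928405, minus strand: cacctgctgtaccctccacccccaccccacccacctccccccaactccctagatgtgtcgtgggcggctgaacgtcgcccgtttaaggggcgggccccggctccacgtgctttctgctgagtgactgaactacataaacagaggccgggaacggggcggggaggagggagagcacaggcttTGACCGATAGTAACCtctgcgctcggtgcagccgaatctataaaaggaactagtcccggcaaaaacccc
APOE, chr19:44905546-44905795, plus strand: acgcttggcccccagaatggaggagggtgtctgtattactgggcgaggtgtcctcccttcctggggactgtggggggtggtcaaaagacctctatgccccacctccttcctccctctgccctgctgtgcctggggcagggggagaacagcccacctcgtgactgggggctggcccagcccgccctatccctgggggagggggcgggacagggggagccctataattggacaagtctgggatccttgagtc
NPC1, chr18:23586507-23586756, minus strand: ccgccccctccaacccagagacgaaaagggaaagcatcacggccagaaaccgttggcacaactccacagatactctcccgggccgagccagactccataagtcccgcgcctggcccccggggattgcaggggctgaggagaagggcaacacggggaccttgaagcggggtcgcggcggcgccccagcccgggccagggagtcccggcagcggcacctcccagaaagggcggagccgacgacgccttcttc
Of the 10 genes, 9 had a promoter in the table, ABCG1 being the one without. The direct repeat was found in 1 of these 9, and in 179 of all 27305 promoters (0.656%). The sterol regulatory element was found in 0 of the 9, and in 313 of all promoters (1.15%). These are matches of letters within a short window, and binding was not measured.

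In TPM, a level per transcript length, the genes kept nearly the same order in all 4 groups. NPC2 was highest, with means of 220 TPM in LA+RVT, 210 in LA, 220 in PGN+RVT and 194 in PGN, above at least 94.8% of the genes tested in each. NPC1, LPCAT3, NR1H2, NR1H3, APOE and ABCG1 followed in that order in every group, and CH25H was lowest in every group. CYP27A1 stood above ABCA1 in LA+RVT and LA, and ABCA1 stood above CYP27A1 in PGN+RVT and PGN. Among neighbours in the order, the 3 libraries overlapped for LPCAT3 with NR1H2 and for NR1H3 with APOE in LA+RVT, and for NR1H2 with NR1H3 and for APOE with ABCG1 in PGN. No neighbours overlapped in PGN+RVT or in LA. A difference in bulk RNA cannot tell fewer cells that hold a transcript from less of it per cell.

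**Figure D1:**
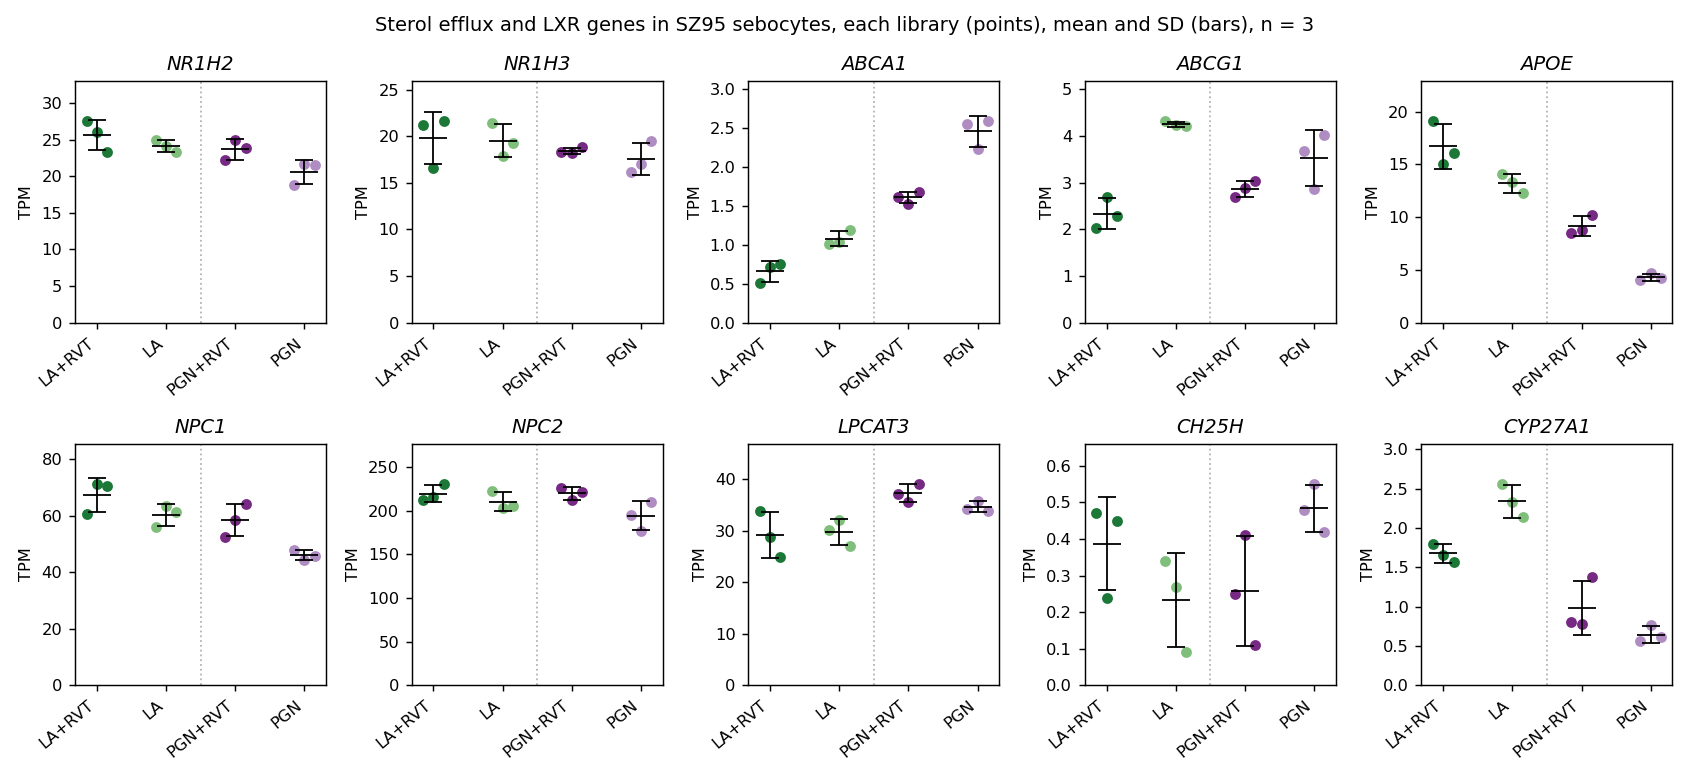
Level of each gene in TPM (vertical axes, linear, from 0) in the LA+RVT, LA, PGN+RVT and PGN libraries (horizontal axis). Points are libraries and bars the mean and SD of 3. APOE libraries lie at 8.48 to 10.25 TPM in PGN+RVT, all above the 4.01 to 4.7 TPM of PGN, and ABCG1 libraries lie at 2.03 to 2.68 TPM in LA+RVT, all below the 4.21 to 4.31 TPM of LA.

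Differences were tested on log2(TPM + 1) with limma, where the mean over the libraries of the fit reached 1 TPM, and a gene was called at a Benjamini-Hochberg adjusted p under 0.05 over all genes tested. Fold changes on this scale are smaller than the ratio of TPM for genes of low level. Under LA, RVT changed 1 of the 8 genes that passed the filter, ABCG1, which was lower, and 0 were higher. Over all 15409 genes tested in that comparison 15.7% were called, 10.7% higher and 5.07% lower. Under PGN, 2 of 8 were called, APOE and NPC1, both higher, and 0 were lower. Over all 14622 genes tested there 15.6% were called, 10.6% higher and 4.92% lower. The counts of 1 and 2 are too small to set apart from those shares. The split over all genes moved with the scaling: with library medians equalised, 1041 genes were higher and 1080 lower under LA, against 1645 and 781 as deposited, and 850 were higher and 1020 lower under PGN, against 1557 and 720. Leaving out mitochondrial and ribosomal protein genes gave 1013 higher and 971 lower under LA, and 1169 higher and 773 lower under PGN. The calls and directions of ABCG1, APOE and NPC1 were the same under both scalings.

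APOE showed the widest change of the 10 genes. It encodes apolipoprotein E (chromosome 19, 44905754 to 44909393 on GRCh38, plus strand), a secreted acceptor of the sterols and phospholipids that cells export, and its gene is an LXR target. Under PGN, the RVT libraries had 8.48, 8.8 and 10.25 TPM and the libraries without RVT 4.01, 4.7 and 4.2 TPM. The lowest RVT library was above the highest one without RVT, and the mean was 9.18 ± 0.943 TPM with RVT and 4.30 ± 0.356 TPM without (SD, n = 3 each), a ratio of 2.13. The log2 fold change was 0.94 ± 0.10 (SE, limma adjusted p = 0.00193), and the call held in all 15 alternative analyses, with adjusted p between 7.35e-05 and 0.0119. Under LA, the RVT libraries had 19.09, 15 and 16.09 TPM and the LA libraries 14.09, 13.29 and 12.31 TPM. These groups did not overlap either, and the mean ratio was 1.26. The log2 fold change of 0.31 ± 0.099 did not pass the threshold (limma adjusted p = 0.0805), nor did it in any of 15 alternatives.

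Because macrophages also express APOE, markers of immune cells were read beside it. Of 12 such markers, 3 had a mean of at least 1 TPM in each group, and CD163, C1QA and C1QB were listed at 0 in all 12 libraries. PTPRC, the common leukocyte antigen, was at 0.62 TPM or less in every library. The summed level of the list was 65.3 to 66.9 TPM in PGN+RVT and 44.6 to 46.5 TPM in PGN, and 64.6 to 69.2 TPM in LA+RVT and 63.2 to 64.5 TPM in LA. Most of it came from CD68, a lysosomal glycoprotein, with 49.7 ± 0.805 TPM in PGN+RVT and 32.4 ± 1.3 TPM in PGN (SD, n = 3 each). Of the 3 markers tested, CD68 and MARCO were called higher under PGN. MARCO, a scavenger receptor of macrophages, averaged 12.5 ± 0.144 TPM in PGN+RVT and 8.11 ± 1.2 TPM in PGN (limma adjusted p = 0.013), and 9.42 ± 1.43 TPM in LA+RVT and 13.6 ± 2.53 TPM in LA (adjusted p = 0.0812). CD14, a monocyte receptor, averaged 2.81 ± 0.342 TPM in PGN+RVT and 3.10 ± 1.26 TPM in PGN (adjusted p = 0.872), and 1.56 ± 0.372 TPM in LA+RVT and 2.56 ± 0.396 TPM in LA (adjusted p = 0.108). Under LA only CD68 of the 3 was called, higher at 54.2 ± 2.06 TPM in LA+RVT and 46.6 ± 2.11 TPM in LA (adjusted p = 0.0309). The part of these transcripts in the APOE result was not tested.

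Both efflux transporters, classical LXR targets, had lower means with RVT in each arm, and the difference passed the test for ABCG1 under LA. ABCG1, which loads cholesterol onto high density lipoprotein (chromosome 21, 42199689 to 42297244, plus strand), had 2.03, 2.68 and 2.29 TPM in LA+RVT and 4.31, 4.23 and 4.21 TPM in LA. The highest LA+RVT library lay well below the lowest LA library, at a mean ratio of 0.549. ABCG1 fell by 0.66 on the log2 scale (SE 0.12, limma adjusted p = 0.0132). The call was lost when LA replicate 1 was left out (adjusted p = 0.0508), and adjusted p was between 0.00359 and 0.0499 in the other alternatives that kept the gene. Under PGN, ABCG1 had 2.69, 2.88 and 3.03 TPM with RVT and 3.68, 2.86 and 4.02 TPM without. One PGN library lay inside the range with RVT, and the log2 fold change of -0.22 (95% interval -0.54 to 0.10) did not pass (limma adjusted p = 0.331).

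ABCA1, which passes cholesterol and phospholipid to lipid-poor apolipoprotein A-I (chromosome 9, 104781002 to 104928237, minus strand), was scarce. It had 0.51, 0.72 and 0.75 TPM in LA+RVT and 1.01, 1.04 and 1.19 TPM in LA. Under PGN it had 1.62, 1.53 and 1.68 TPM with RVT and 2.56, 2.23 and 2.59 TPM without. In both arms every RVT library was below every library without RVT, at mean ratios of 0.611 under LA and 0.654 under PGN. Neither difference passed: its mean in the LA arm, 0.87 TPM, was under the filter and gave an adjusted p of 0.211 with no filter in limma, and under PGN the log2 fold change was -0.41 ± 0.13 (limma adjusted p = 0.0836). Under PGN it was called in 2 of 14 alternatives, the prior without a trend (adjusted p = 0.0184) and the fit on 12 libraries (adjusted p = 0.0455). With 3 libraries against 3, an exact two-sided permutation test gave p = 0.1 for ABCA1 in each arm, the smallest value it can give.

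The levels of both transporters were also set against each other within a library. ABCG1 stood at 3.59 ± 0.478 times the TPM of ABCA1 in LA+RVT and 3.96 ± 0.377 times in LA, and at 1.78 ± 0.112 times in PGN+RVT and 1.42 ± 0.135 times in PGN (SD, n = 3 each). The ratios of the LA arm, 3.05 to 4.27, and of the PGN arm, 1.28 to 1.88, did not overlap, and were not tested since the tables differ in annotation.

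The receptors themselves showed no call. NR1H2 (LXR beta, expressed in most tissues) had 27.52, 26.05 and 23.39 TPM in LA+RVT and 24.96, 24.21 and 23.38 TPM in LA, which overlap. Under PGN it had 22.19, 24.99 and 23.92 TPM with RVT and 18.76, 21.69 and 21.52 TPM without, which do not overlap but missed the threshold (log2 fold change 0.19, 95% interval 0.0036 to 0.38, limma adjusted p = 0.156). NR1H3 (LXR alpha, the form typical of liver, fat and macrophages) had 21.22, 16.58 and 21.6 TPM in LA+RVT and 21.42, 17.93 and 19.25 TPM in LA. With PGN it had 18.32, 18.16 and 18.83 TPM with RVT and 16.16, 16.99 and 19.47 TPM without. NR1H3 overlapped between groups in both arms, and the 95% intervals of its log2 fold change were -0.26 to 0.28 under LA and -0.12 to 0.26 under PGN. NR1H2 exceeded NR1H3 in each library, by 1.08 to 1.57 times.

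NPC1 and NPC2 hand over cholesterol in late endosomes and lysosomes, NPC2 as the soluble carrier and NPC1 as the membrane transporter that receives it. NPC1 (chromosome 18, 23506184 to 23586898, minus strand) had 52.58, 58.41 and 63.9 TPM in PGN+RVT and 47.87, 44.34 and 45.84 TPM in PGN. The groups did not overlap and the mean ratio was 1.27. NPC1 rose by a log2 fold change of 0.33 ± 0.077 (SE, limma adjusted p = 0.0289). That call was lost in 7 of 15 alternatives: with no filter (adjusted p = 0.075), a prior without a trend (0.0601), a replicate block (0.0609), and without PGN replicate 2 (0.0933), PGN replicate 3 (0.0666), PGN+RVT replicate 2 (0.0869) or PGN+RVT replicate 3 (0.0781). Under LA, NPC1 had 60.5, 71.14 and 70.56 TPM with RVT and 55.89, 63.34 and 61.1 TPM without, which overlap (log2 fold change 0.16, limma adjusted p = 0.211).

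NPC2 had 226.2, 212.19 and 221.21 TPM in PGN+RVT and 195.03, 177.05 and 210.49 TPM in PGN, all RVT libraries being above all others. Its log2 fold change of 0.18 ± 0.066 did not pass (limma adjusted p = 0.111), and it passed in 1 of 15 alternatives, without PGN replicate 3 (adjusted p = 0.0446). In LA+RVT it had 211.82, 216.04 and 230.66 TPM and in LA 222.87, 202.83 and 205.29 TPM, which overlap. LPCAT3, an LXR target that puts polyunsaturated chains into phospholipids, had 24.93 to 33.83 TPM in LA+RVT and 27.03 to 32.12 TPM in LA. In the PGN arm it had 35.57 to 39.09 TPM with RVT and 33.82 to 35.87 TPM without. It overlapped in both arms, with log2 fold changes of -0.035 under LA and 0.10 under PGN (limma adjusted p = 0.874 and 0.282).

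Both enzymes that make oxysterols were near the lower limit of the tables. CYP27A1, the mitochondrial sterol side-chain hydroxylase, had 1.8, 1.66 and 1.57 TPM in LA+RVT and 2.56, 2.33 and 2.14 TPM in LA. The groups did not overlap, at a mean ratio of 0.716, and the log2 fold change of -0.32 ± 0.13 did not pass (limma adjusted p = 0.159). It passed in 1 of 14 alternatives, the prior without a trend (adjusted p = 0.0388). In PGN+RVT it had 0.8, 0.78 and 1.38 TPM and in PGN 0.56, 0.77 and 0.61 TPM, a mean of 0.817 TPM that was under the filter. CH25H, the cholesterol hydroxylase of the endoplasmic reticulum, was under the filter in both arms, with 0.24 to 0.47 TPM in LA+RVT and 0.09 to 0.34 TPM in LA, and with 0.11 to 0.41 TPM in PGN+RVT and 0.42 to 0.55 TPM in PGN. The CH25H groups overlapped under LA and not under PGN, and no filter gave limma adjusted p of 0.538 and 0.305.

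**Figure D2:**
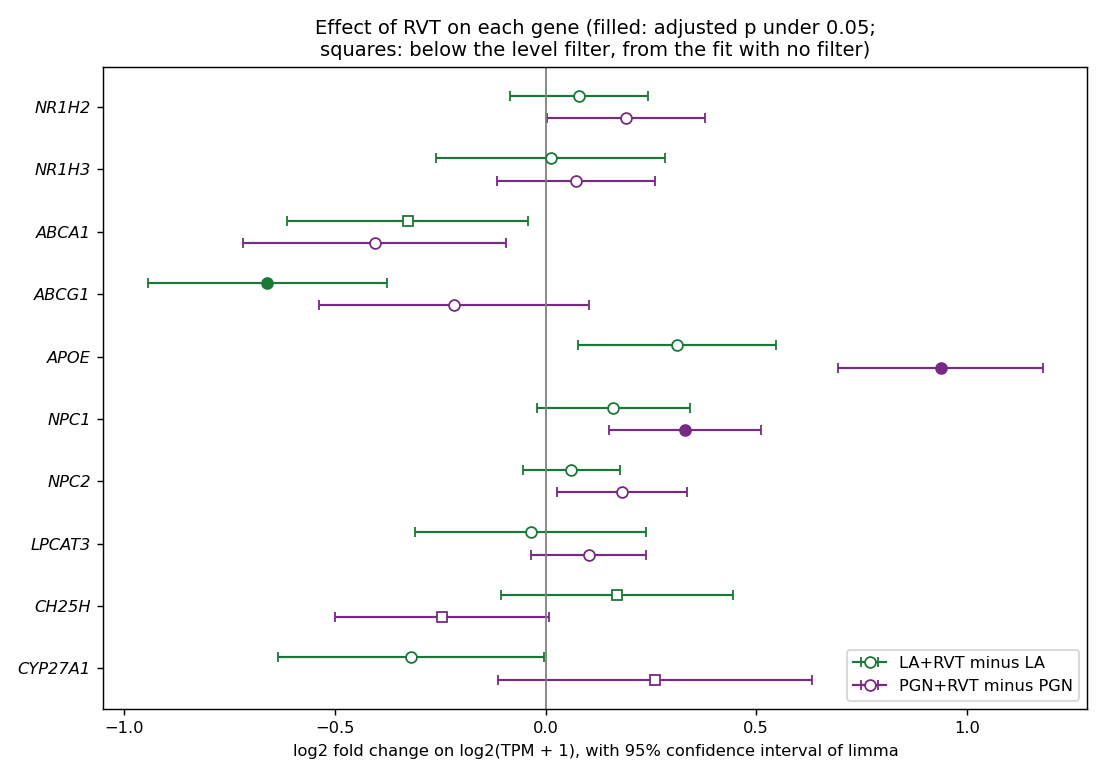
Log2 fold change of each gene on log2(TPM + 1) (horizontal axis) for LA+RVT minus LA (green) and PGN+RVT minus PGN (purple), with the 95% confidence interval of limma. Filled points have an adjusted p under 0.05, which holds for ABCG1 under LA and for APOE and NPC1 under PGN, and squares are genes under the level filter, from the fit with no filter.

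Counted by separation alone, 3 of the 8 genes tested under LA did not overlap between groups, 1 higher and 2 lower with RVT, where 36.2% of all genes tested did not overlap. Under PGN 5 of 8 did not, 4 higher and 1 lower, where 36.1% of all genes tested did not. At an unadjusted p under 0.05, limma gave 3 of the 8 under LA, where 30.6% of all genes tested were under it, and 5 of the 8 under PGN, where 30.8% were. The counts under LA are close to these shares. With 8 genes, the higher counts under PGN are too small to set apart from them.

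The effect of RVT on APOE differed between the LA and PGN arms. Each stimulus has its own table and annotation, and culture days are not stated. In a difference of effects, the stimulus cannot be told apart from these. In 1 fit over the 12 libraries, the log2 fold change under PGN minus that under LA was 0.63 ± 0.14 (SE, limma adjusted p = 0.0134), and this held in all 20 alternatives, with adjusted p between 0.00709 and 0.037. It was the only call among the 9 genes that passed the filter of that fit, 1 higher and 0 lower, where 14.8% of all 15177 genes were called, 7.73% higher and 7.03% lower. CYP27A1, at 0.26 under PGN in the fit with no filter and -0.32 under LA, had a difference of 0.58 ± 0.22 that did not pass (limma adjusted p = 0.0995) and passed in 1 of 19 alternatives, the prior without a trend (adjusted p = 0.0351). ABCG1 had a difference of 0.44 (95% interval 0.070 to 0.81, limma adjusted p = 0.11). The lower level of ABCG1 is not shown to be particular to LA. ABCA1 had a difference of -0.078 (95% interval -0.48 to 0.33), and ABCA1 and CYP27A1 passed that filter through 1 arm each, PGN for ABCA1 and LA for CYP27A1.

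Other genes of sterol handling were read from 7 lists that together hold 103 genes, chosen with earlier results of these data known. Under LA 11 of the 85 tested were higher and 7 lower, 21.2% in all beside 15.7% of all genes, with a median log2 fold change of 0.039 beside 0.036 over all genes. With PGN 25 of the 84 tested were higher with RVT and 6 lower, 36.9% in all beside 15.6% of all genes. The median there was 0.17 beside 0.064 over all genes. The list genes were not matched to all genes by level, and the share called over all genes depends on it. With a filter at 5 TPM, 2565 of all 11432 genes were called under LA and 2301 of all 10804 under PGN. With library medians equalised 15 of 84 were higher and 7 lower under PGN, where 1870 of all 14622 genes were called. Without mitochondrial and ribosomal protein genes 22 of 85 were higher and 6 lower there, where 1942 of all 15288 were called. Under LA 9 of 85 were higher and 7 lower with medians equalised, where 2121 of all 15409 were called. Without mitochondrial and ribosomal protein genes 8 of 86 were higher and 7 lower under LA, where 1984 of all 16107 were called. With medians equalised, the named genes AGPAT2, EBP, FDXR, HDAC3, HSD3B7, LRP1, OSBPL2 and SREBF1 lost their call under PGN, with adjusted p of 0.054 to 0.0862. Under LA, CAV1 and NCEH1 lost theirs with medians equalised (adjusted p = 0.3 and 0.0582) and without mitochondrial and ribosomal protein genes (0.271 and 0.0631).

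Of 13 partners and coregulators of the receptors tested, 0 were higher and 1 was lower under LA (7.69%, beside 15.7% of all genes), and 1 was higher and 1 lower under PGN (15.4%, beside 15.6%). The share under PGN is that of all genes, and 1 call under LA is too few to set apart from it. RXRA, the retinoid X receptor that pairs with LXR, averaged 25.1 ± 1.08 TPM in LA+RVT and 30.5 ± 0.954 TPM in LA (SD, n = 3 each), with a log2 fold change of -0.27 (limma adjusted p = 0.016). In the PGN arm RXRA averaged 31.8 ± 0.691 TPM with RVT and 35.6 ± 3.52 TPM without (adjusted p = 0.229). HDAC3, the deacetylase of corepressor complexes, averaged 107 ± 2.88 TPM in PGN+RVT and 89.2 ± 2.45 TPM in PGN (adjusted p = 0.00989). PPARGC1B, a coactivator, averaged 2.91 ± 0.104 TPM in PGN+RVT and 4.12 ± 0.248 TPM in PGN (adjusted p = 0.0479).

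In the list of other LXR targets, 3 of 14 tested genes were higher and 3 lower under LA. Under PGN 4 were higher and 2 lower. That is 42.9% in each arm beside 15.7% and 15.6% of all genes. Whether LXR acts on each gene of this list, LPCAT1 among them, was not tested. LPCAT1, a lysophospholipid acyltransferase, averaged 144 ± 2.97 TPM in LA+RVT and 120.0 ± 2.89 TPM in LA (limma adjusted p = 0.00344), and RNF145, a ubiquitin ligase, averaged 113 ± 0.539 TPM in LA+RVT and 96.8 ± 2.52 TPM in LA (adjusted p = 0.00581). Of the lipogenic genes of the list, ACACA overlapped between groups under PGN, at 44.8 ± 4.55 TPM in PGN+RVT and 42.1 ± 4.34 TPM in PGN. FASN, fatty acid synthase, averaged 123 ± 2.01 TPM in PGN+RVT and 77.4 ± 9.47 TPM in PGN (adjusted p = 0.00307). SCD, stearoyl-CoA desaturase, averaged 171 ± 12.2 TPM with RVT and 124 ± 7.26 TPM without (adjusted p = 0.00561), and SREBF1, which encodes the lipogenic factor SREBP-1, averaged 122 ± 3.10 TPM with RVT and 94.1 ± 9.92 TPM without (adjusted p = 0.0178). Under LA, SREBF1 was lower, at 59.0 ± 2.77 TPM in LA+RVT and 69.5 ± 3.89 TPM in LA (adjusted p = 0.0334). MYLIP, a ubiquitin ligase that marks lipoprotein receptors for breakdown, averaged 4.45 ± 0.590 TPM in PGN+RVT and 2.77 ± 0.157 TPM in PGN (adjusted p = 0.0289). PLTP, the phospholipid transfer protein, averaged 29.2 ± 2.94 TPM in LA+RVT and 37.5 ± 1.15 TPM in LA (adjusted p = 0.0226). LPL, lipoprotein lipase, averaged 9.30 ± 0.630 TPM in PGN+RVT and 14.9 ± 1.51 TPM in PGN (adjusted p = 0.00616), and was also lower under LA, at 6.76 ± 0.760 TPM in LA+RVT and 11.4 ± 2.31 TPM in LA (adjusted p = 0.0283).

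Of 14 sterol uptake and efflux partners tested under LA, 3 were higher and 1 lower (28.6%, beside 15.7% of all genes). Of 13 tested under PGN, 6 were higher and 1 lower (53.8%, beside 15.6%), with a median log2 fold change of 0.42 beside 0.064 over all genes. CAV1, the caveolar coat protein, averaged 294 ± 11.1 TPM in PGN+RVT and 473 ± 7.07 TPM in PGN (limma adjusted p = 0.000153). APOL1, an apolipoprotein, averaged 39.0 ± 2.20 TPM in PGN+RVT and 28.9 ± 1.42 TPM in PGN (adjusted p = 0.00738). LRP1, a receptor for lipoprotein remnants, averaged 19.0 ± 1.27 TPM in PGN+RVT and 13.8 ± 1.6 TPM in PGN (adjusted p = 0.024). LRP8, a receptor for APOE, averaged 31.2 ± 0.804 TPM in LA+RVT and 25.1 ± 1.89 TPM in LA (adjusted p = 0.0218). SCARB1, the receptor for high density lipoprotein, averaged 74.3 ± 4.04 TPM in PGN+RVT and 85.0 ± 4.46 TPM in PGN (adjusted p = 0.0773).

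In lysosomal and intracellular sterol transport, 1 of 23 genes was higher and 1 lower under LA (8.70%, beside 15.7% of all genes), and 6 were higher and 1 lower under PGN (30.4%, beside 15.6%). LIPA, the lysosomal acid lipase that frees cholesterol for NPC1 and NPC2, averaged 128 ± 3.33 TPM in LA+RVT and 104 ± 1.27 TPM in LA (limma adjusted p = 0.00184), and 99.4 ± 6.12 TPM in PGN+RVT and 76.5 ± 8.57 TPM in PGN (adjusted p = 0.0267). STARD3, a late endosomal cholesterol transfer protein, averaged 62.6 ± 0.755 TPM in PGN+RVT and 43.2 ± 3.23 TPM in PGN (adjusted p = 0.00272), and 68.5 ± 6.15 TPM in LA+RVT and 71.2 ± 2.61 TPM in LA (adjusted p = 0.619). OSBPL2, an oxysterol-binding protein relative, averaged 79.2 ± 2.42 TPM in PGN+RVT and 68.2 ± 1.97 TPM in PGN (adjusted p = 0.025). GRAMD1B, which carries cholesterol from the plasma membrane to the endoplasmic reticulum, fell in both arms, to 6.69 ± 0.716 TPM in LA+RVT against 9.90 ± 0.462 TPM in LA (adjusted p = 0.0139), and to 14.0 ± 0.714 TPM in PGN+RVT against 21.8 ± 1.86 TPM in PGN (adjusted p = 0.00402).

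Of 5 genes of the sterol ester cycle, 1 was higher and 0 lower in each arm, a count too small to read against the 15.7% and 15.6% of all genes. NCEH1, a cholesteryl ester hydrolase, averaged 31.0 ± 0.578 TPM in LA+RVT and 26.8 ± 0.278 TPM in LA (limma adjusted p = 0.0229). LIPE, hormone-sensitive lipase, averaged 5.80 ± 0.980 TPM in PGN+RVT and 3.41 ± 0.435 TPM in PGN (adjusted p = 0.0253). SOAT1, which esterifies cholesterol, averaged 24.2 ± 4.11 TPM in LA+RVT and 17.5 ± 2.08 TPM in LA (adjusted p = 0.0798).

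Of 8 oxysterol and side-chain enzymes tested, 2 were higher and 1 lower under LA (37.5%, beside 15.7% of all genes), and 5 were higher and 0 lower under PGN (62.5%, beside 15.6%). SULT2B1, a sterol sulfotransferase, averaged 34.6 ± 2.28 TPM in PGN+RVT and 23.3 ± 3.12 TPM in PGN (limma adjusted p = 0.0137). EBP, a sterol isomerase, averaged 95.9 ± 3.46 TPM in PGN+RVT and 78.6 ± 4.88 TPM in PGN (adjusted p = 0.0203), and HSD3B7, a bile acid enzyme, 5.29 ± 0.589 TPM in PGN+RVT and 3.35 ± 0.328 TPM in PGN (adjusted p = 0.025). FDX1 and FDXR pass electrons to mitochondrial hydroxylases such as CYP27A1. FDX1 averaged 5.91 ± 0.251 TPM in LA+RVT and 4.15 ± 0.0551 TPM in LA (adjusted p = 0.0205), and FDXR 33.6 ± 1.89 TPM in LA+RVT and 41.4 ± 0.830 TPM in LA (adjusted p = 0.0126), so they moved in opposite directions. Under PGN, FDXR was higher (adjusted p = 0.0252). Of 8 phospholipid acyltransferases and relatives of LPCAT3, 1 was higher and 0 lower under LA (12.5%, beside 15.7% of all genes), and 2 were higher and 1 lower under PGN (37.5%, beside 15.6%). LPCAT4 averaged 95.6 ± 4.71 TPM in PGN+RVT and 62.4 ± 4.13 TPM in PGN (adjusted p = 0.00158), LPCAT2 averaged 35.5 ± 3.50 TPM in PGN+RVT and 56.1 ± 5.30 TPM in PGN (adjusted p = 0.00564), AGPAT2 averaged 87.0 ± 4.42 TPM in PGN+RVT and 71.0 ± 3.09 TPM in PGN (adjusted p = 0.0171), and MBOAT7 averaged 153 ± 0.947 TPM in LA+RVT and 114 ± 7.72 TPM in LA (adjusted p = 0.00283).

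The list counts within each arm were lower with any 1 of its libraries left out. Under LA the 18 calls became 10 without LA replicate 1, 10 without LA replicate 2, 9 without LA replicate 3, 11 without LA+RVT replicate 1, 9 without LA+RVT replicate 2 and 11 without LA+RVT replicate 3. Under PGN the 31 calls became 26 without PGN replicate 1, 17 without PGN replicate 2, 22 without PGN replicate 3, 17 without PGN+RVT replicate 1, 18 without PGN+RVT replicate 2 and 18 without PGN+RVT replicate 3. Of the named genes, CAV1, FDX1, GRAMD1B, LPL, LRP8, NCEH1, PLTP, RXRA and SREBF1 lost their call under LA in at least 1 of these 6 fits, with adjusted p of 0.05 to 0.125 there. Under PGN, AGPAT2, EBP, FDXR, HSD3B7, LIPA, LIPE, LRP1, MYLIP, OSBPL2, PPARGC1B, SREBF1 and SULT2B1 did, with adjusted p of 0.0513 to 0.126. Calls over all genes tested fell as well in these fits, from 2426 to between 1428 and 1690 under LA. In the PGN arm they fell from 2277 to between 1095 and 1861.

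**Figure D3:**
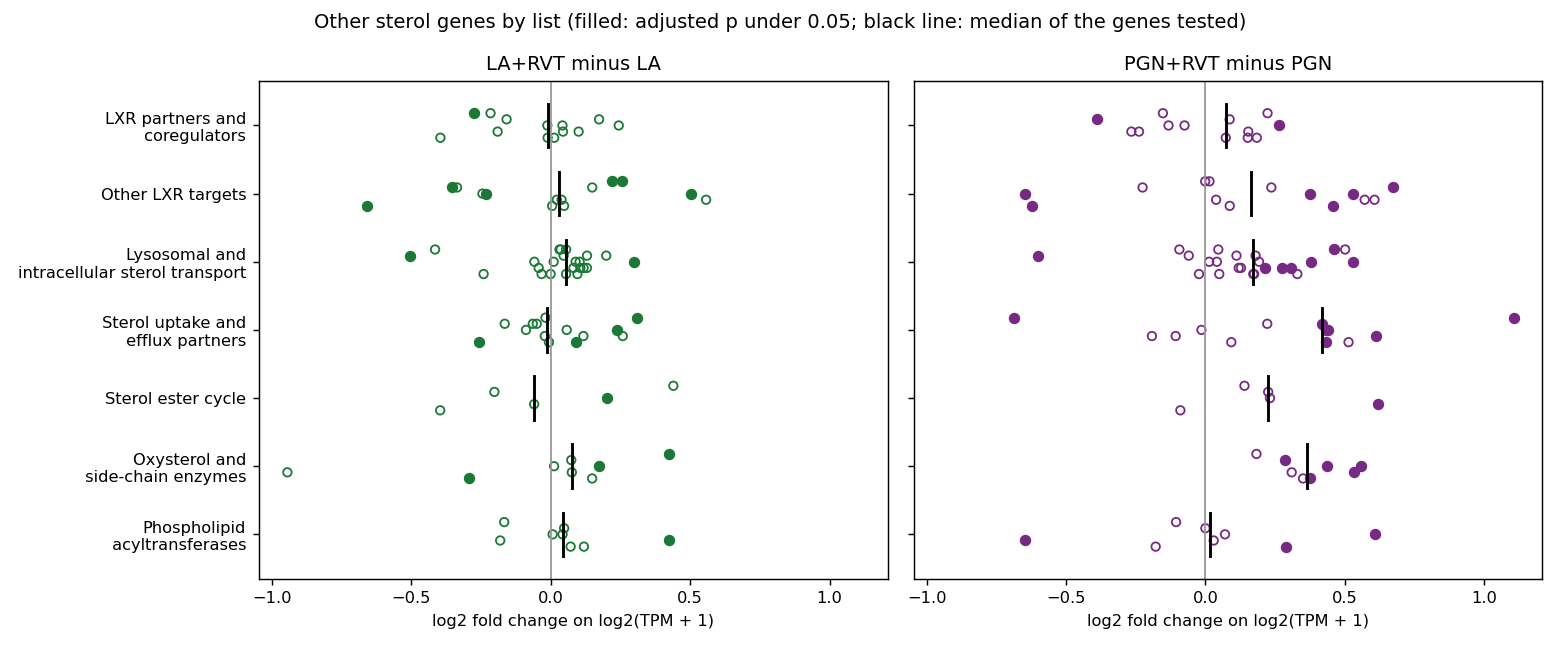
Log2 fold change on log2(TPM + 1) (horizontal axis) of the tested genes of each list (rows) for LA+RVT minus LA (left) and PGN+RVT minus PGN (right). Filled points have an adjusted p under 0.05 and black lines are medians, which for uptake and efflux partners lie at -0.012 under LA and 0.42 under PGN.

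The fit of the difference called 17 of the 84 list genes tested with a higher effect under PGN and 7 with a lower one, 28.6% in all beside 14.8% of all genes. CAV1 had a difference of -0.78 ± 0.043 on the log2 scale (limma adjusted p = 1.1e-06), with effects of -0.69 under PGN and 0.091 under LA. FDXR had a difference of 0.67 ± 0.10 (adjusted p = 0.00133), with effects of 0.38 under PGN and -0.29 under LA. MYLIP differed by 0.77 ± 0.14 (adjusted p = 0.00465) and SREBF1 by 0.61 ± 0.099 (adjusted p = 0.00204). LIPA, GRAMD1B and LPL, called with the same sign in both arms, had differences of 0.078, -0.095 and 0.037, with adjusted p = 0.661, 0.661 and 0.928.

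**Figure D4:**
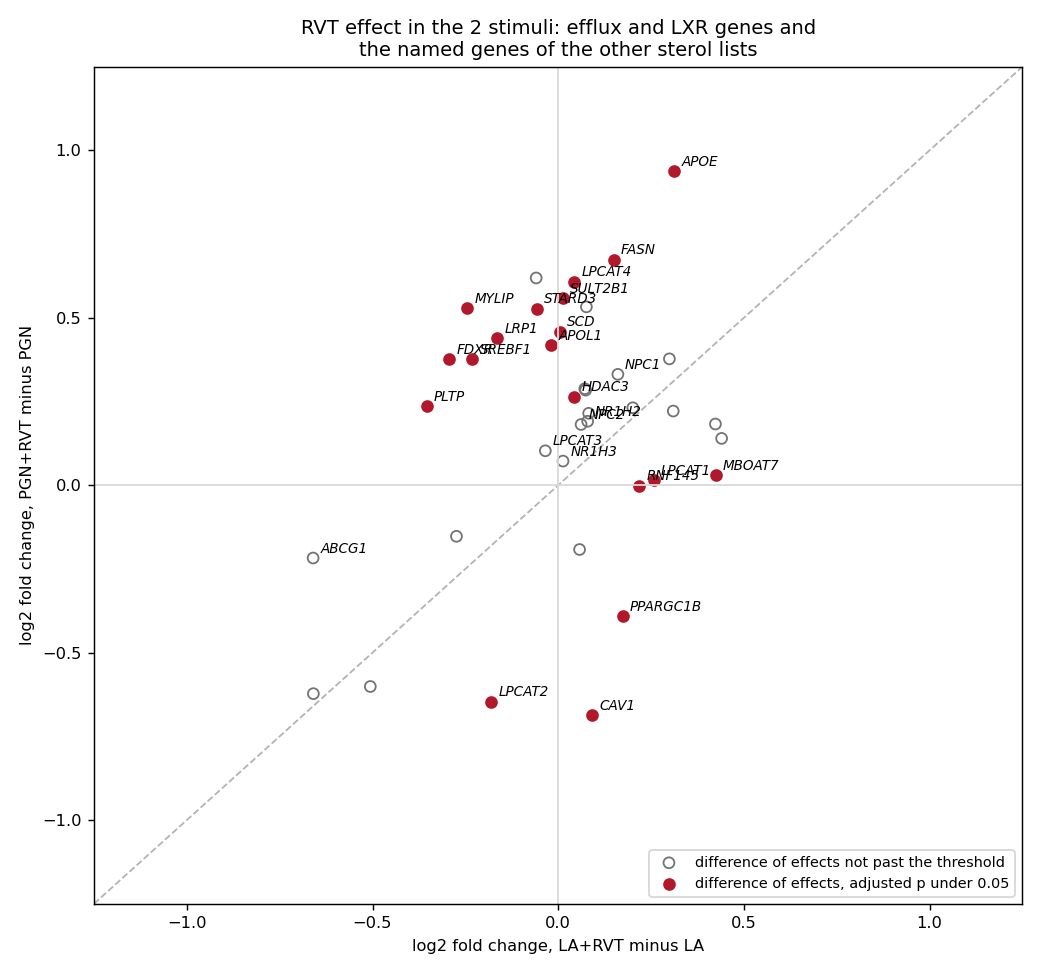
Log2 fold change of RVT under PGN (vertical axis) against that under LA (horizontal axis) for the genes of the text that passed the filter in both arms and in the joint fit. Filled points have an adjusted p under 0.05 for the difference of the effects, and the dashed line marks equal effects. APOE lies above the line with 0.94 under PGN and 0.31 under LA, and ABCA1, CH25H and CYP27A1 are absent because they were under the filter in an arm.

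Over the 12 libraries, with the mean of its table taken off each gene, the profile of ABCA1 was most like that of ST3GAL4 (Pearson r = 0.971), FEN1 (0.961), ETV6 (0.952), E2F1 (0.95) and TNFAIP2 (0.949). The profile of ABCG1 was most like SLC44A5 (r = 0.969), LGALS3 (0.964), SNAPIN (0.947), CTSH (0.946) and LY6D (0.941). These are the highest of 10530 genes compared, those with a mean of at least 5 TPM in each arm. ABCA1 and ABCG1 lie under that level, so genes as scarce as they are were not compared. The libraries share their groups, and the values are a description. TNFAIP2, a gene known to respond to tumour necrosis factor, had means of 119 TPM in LA+RVT and 259 TPM in LA, and of 218 TPM in PGN+RVT and 669 TPM in PGN. LGALS3, which encodes galectin-3, had means of 139 TPM in LA+RVT and 186 TPM in LA, and of 161 TPM in PGN+RVT and 180 TPM in PGN.

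Across the series, TPM columns summed to between 994373 and 997060 and 14489 to 15452 genes were at 1 TPM or more per library. Markers of the cell line were mixed: KRT7, MUC1 and PPARG were expressed, KRT7 at 1170.81 to 1820.43 TPM, and MC5R and AWAT2, markers of late sebaceous differentiation, were listed at 0 in all 12 libraries. Keratinocyte markers summed to 192.18 to 200.05 TPM in LA+RVT and 226 to 237 TPM in LA, and to 409 to 414 TPM in PGN+RVT and 508 to 526 TPM in PGN. Most of each sum came from KRT5, with means of 146.5 TPM in LA+RVT, 189.4 in LA, 356.8 in PGN+RVT and 440.4 in PGN. Not all of them fell: IVL, KRT10 and KRT14 had higher means with RVT under LA, and KRT14 also under PGN. Of 5 tested under LA, 0 were called higher and 1 lower. Of 6 tested under PGN, 0 were called higher and 4 lower (66.7%, beside 15.6% of all genes). The mitochondrial share of TPM was 10.1 to 14.3% over the libraries. The part of these differences in the results was not tested.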

How the data were processed

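The 12 libraries of SZ95 sebocytes, 3 each of LA+RVT, LA, PGN+RVT and PGN, were assigned to groups by title. Each stimulus has its own table, in which the authors gave TPM to 2 decimals. The unit is not named in the headers and was read from the values. HISAT2 2.1.0, RSEM 1.3.1, DESeq2 1.24.0 and GRCh38.p13 are named, per the submitters' processing notes, with no role or order. The annotation release and whether counting used strand are not given in the sources used here. Whether reads of overlapping genes on opposite strands were kept apart is therefore not known. The tables hold 60671 genes (LA) and 60666 (PGN), and 1432 of the 60630 shared identifiers carry different names. TPM is a share and keeps no depth: no counting interval can be given, and a level can drop when other genes take more of the total.

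Values were transformed as log2(TPM + 1), genes whose mean was under 1 TPM were left out, and the rest were tested in R 4.3.3 with limma 3.58.1, using a trended prior, two-sided tests, Benjamini-Hochberg adjustment over all genes tested and a threshold of 0.05. RVT comparisons were fitted within each table on 6 libraries, and their difference on 12 libraries joined by identifier. The code was tested on simulated data. The 10 genes, the 7 lists and the marker lists were chosen with earlier results of these data known. Named genes were all 10, up to 4 called genes of smallest p per list and comparison, 7 well-known genes whether called or not, and the 5 genes most like ABCA1 and ABCG1. Some genes that met this rule are counted in their lists but not reported here by name. Genes named for 1 comparison may be given with their values in another. ACACA is given beside the called lipogenic genes of its list. Replicates are labelled biological, but culture days are not stated, and p-values rest on the spread among these libraries. Alternatives were another pseudocount (0.1 TPM), no filter or a filter at 5 TPM, 2 other scalings, 2 other priors, a replicate block, leaving out each library and a fit on 12 libraries. Gene positions are from GENCODE on GRCh38 and promoters from RefSeq on GRCh38.p14.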

Additional observations from a re-analysis of the deposited data

Results flagged for a closer look

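The effect of RVT under PGN minus that under LA passed the threshold (limma, adjusted p under 0.05 over all genes tested) for APOE and for 18 named genes of the sterol lists. This marks them as differing between the arms, in which the stimulus cannot be told apart from the table. APOE had a difference of 0.63 on the log2 scale, with a higher effect under PGN. Higher effects under PGN were also found for MYLIP (0.77), FDXR (0.67), SREBF1 (0.61), LRP1 (0.60), PLTP (0.59), STARD3 (0.59), LPCAT4 (0.57), SULT2B1 (0.55), FASN (0.52), SCD (0.45), APOL1 (0.44) and HDAC3 (0.22). Lower effects under PGN were found for CAV1 (-0.78), PPARGC1B (-0.56), LPCAT2 (-0.47), MBOAT7 (-0.39), LPCAT1 (-0.24) and RNF145 (-0.22). Of the 18 named genes, 3 lost this call in some fits with 1 of the 12 libraries left out: HDAC3 in 5, LPCAT2 in 6 and RNF145 in 1, without LA replicate 1, with adjusted p of 0.05 to 0.0699. The other 15, and APOE, were called in each of these fits. HDAC3 also lost it with library medians equalised (adjusted p = 0.0819). Over all alternatives, HDAC3 and LPCAT2 lost it in 8 each, PPARGC1B in 2 and RNF145 in 1.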

How the results depend on the processing

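Under LA, the 2426 calls over all genes became 1610 with no filter, 1502 with a replicate block and 1428 to 1690 with 1 library left out. The 1 call among the 10 genes became 0 with a filter at 5 TPM, which ABCG1 does not reach, 2 with a prior without a trend and 0 to 1 with 1 library left out, and the 18 list calls became 10 with the block and 9 to 11 with 1 library left out. Under PGN, the 2277 calls became 1384 with no filter and 1095 to 1861 with 1 library left out. The 2 calls among the 10 genes became 1 with no filter, 1 with the block and 1 to 2 with 1 library left out, and the 31 list calls became 19 with no filter and 17 to 26 with 1 library left out. For the difference of effects, the 1 call became 2 with a prior without a trend. Signs turned only for log2 fold changes near 0. With 1 library left out, NR1H3 ranged over -0.052 to 0.13 and LPCAT3 over -0.14 to 0.070 under LA, and NR1H3 over -0.058 to 0.13 in the difference. NR1H3 under LA (0.013) became -0.035 with medians equalised, -0.033 without mitochondrial and ribosomal protein genes, and -0.044, -0.039 and -0.052 without LA replicate 2, LA+RVT replicate 1 and LA+RVT replicate 3. LPCAT3 under LA (-0.035) became 0.020 without LA replicate 2 and 0.070 without LA+RVT replicate 3. In the difference, NR1H3 (0.059) became -0.0060 without LA replicate 1 and -0.058 without LA+RVT replicate 2, and ABCA1 (-0.078) became 0.067 with a pseudocount of 0.1 TPM. The cause was not tested. Deviations of same-numbered libraries from their group means correlated at -0.070 to -0.0068 under LA and 0.0081 to 0.041 under PGN. For libraries of different number the range was -0.030 to 0.058 under LA and -0.041 to 0.016 under PGN. Correlations this small cannot tell whether the numbers pair the samples. The block gave 1574 calls under PGN and 1730 for the difference, against 2240. Of 54 named list calls, 28 held under every alternative and 26 were lost under at least 1.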

Other observations

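Several genes of the same pathways were hardly present in these cells. RXRG and APOC4 were listed at 0 TPM in all 12 libraries. Of 22 genes listed as other LXR targets, 14 had a mean of at least 1 TPM, and the sterol half-transporters ABCG5 and ABCG8 were among those under it. APOA1, the main acceptor of cholesterol from ABCA1, had a mean of 0.0333 TPM in LA+RVT, 0 in LA, 0.0567 in PGN+RVT and 0.15 in PGN. ABCA7, a close relative of ABCA1, averaged 16.7 ± 1.32 TPM in PGN+RVT and 12.2 ± 0.685 TPM in PGN, and 36.2 ± 4.14 TPM in LA+RVT and 37.7 ± 2.62 TPM in LA (SD, n = 3 each). ABCA2, another relative, averaged 49.3 ± 6.46 TPM in PGN+RVT and 36.1 ± 2.19 TPM in PGN, and 67.18 ± 4.1 TPM in LA+RVT and 67.45 ± 3.48 TPM in LA. The relatives ABCA5 and ABCA3 overlapped between groups in both arms, with lower means with RVT.

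PPARG, a nuclear receptor of lipid-storing cells and a sebocyte marker, had 22.13, 23.59 and 23.66 TPM in PGN+RVT and 37.77, 39.19 and 39.23 TPM in PGN. The libraries with RVT all lay below those without. In the LA arm PPARG had 20.81, 23.33 and 22.62 TPM with RVT and 24.31, 22.69 and 22 TPM without, which overlap. PPARG does not stand for the other sebocyte markers. Of 9 tested under PGN, 4 were called higher, FASN and SCD among them, and 1 lower (55.6%, beside 15.6% of all genes). Of 10 tested under LA, 2 were called higher and 1 lower (30.0%, beside 15.7%). ABCA7, ABCA2, ABCA5, ABCA3 and PPARG were chosen here after their values were seen.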
